A study of Mus musculus with 18 samples.

Results

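The genes described here are 47 mouse interferon-stimulated genes and their immediate regulators, taken from a fixed list of symbols and followed through RNA-sequencing of neural stem cells as they became astrocytes. They were found as 47 rows among the 54838 genes of the count table. The rule that selects them uses no measured value, but the list was chosen with earlier results of these data known. The list holds 4 interferon receptor subunits, 7 STAT and IRF transcription factors, 4 sensors of foreign nucleic acid, 16 antiviral effectors, 6 genes of ISG15, ubiquitin or ADP-ribose transfer, 6 guanylate-binding proteins (GBPs) and 4 immunity-related GTPases (IRGs). The cells were primary neurospheres (NSPs, floating aggregates of neural stem cells) grown with EGF from the ventricular zone of wild-type C57BL/6J embryos at day 14. The groups were proliferating NSPs without TNF, untreated cells after 24 h, 72 h or 1 week in differentiation medium with 10% FBS, and cells that received 50 ng/ml TNF in that medium for 24 h or 72 h. Each of the 6 groups had 3 replicates, 18 libraries in all. The labels call the differentiated cells astrocytes, and no sorting is described for the sequenced cultures. Each primary culture came from 1 brain, and the study describes its data in general as independent biological experiments, but the labels do not tie the replicates of a group to separate brains, so the tests measure the spread between these cultures. There was no 1 week group with TNF, and the NSP group differs from the others in medium as well as in stage.

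Interferons are secreted proteins that bind receptor pairs and, through JAK kinases, activate STAT transcription factors. Type I interferons act through IFNAR1 and IFNAR2 and act on genes through a complex with STAT2 and IRF9 that binds the interferon-stimulated response element (ISRE), whereas interferon gamma signals through IFNGR1 and IFNGR2 to genes with the gamma-activated site (GAS). The target genes sense viral RNA, block viral replication, tag proteins with ISG15, or, as GBPs and IRGs, are large GTPases that coat and disrupt the vacuoles of intracellular pathogens. TNF, a cytokine released by microglia in inflamed brain, signals mainly through NF-kB, which binds kB sites, and the factor IRF1 is a known target of NF-kB and of interferon gamma.

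The bases just before the start sites show how these genes differ in matches to known response elements, and a few are printed for that reason. The sequences are RefSeq promoter windows on build GRCm38.p6, which held 35 of the 47 members, and the 250 bases before each start were searched on both strands for 3 patterns: the ISRE core GAAANNGAAA, GAS TTCNNNGAA and kB GGGNNNTTCC. Capitals mark a match in either orientation, and neighbouring matches can overlap. Gbp2 and Gbp3, in the GBP cluster of chromosome 3, and Irgm1, on chromosome 11, are GTPase genes that were higher with TNF and carry ISRE cores near the start.
Gbp2 (chr3:142620589-142620628, plus strand): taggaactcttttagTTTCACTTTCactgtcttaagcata
Gbp3 (chr3:142559984-142560029, plus strand): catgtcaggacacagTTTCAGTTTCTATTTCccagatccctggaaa
Irgm1 (chr11:48871421-48871465, minus strand): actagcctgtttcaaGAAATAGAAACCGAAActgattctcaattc
Irf1 and Irf8 carry GAS matches, and Ifngr2 and Ifitm3 carry kB matches; all of these were higher with TNF at 24 h, 72 h or both.
Irf1 (chr11:53769909-53769947, plus strand): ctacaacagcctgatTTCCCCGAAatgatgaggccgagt
Irf8 (chr8:120736172-120736228, plus strand): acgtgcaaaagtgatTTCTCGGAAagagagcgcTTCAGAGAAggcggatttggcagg
Ifngr2 (chr16:91546969-91547008, plus strand): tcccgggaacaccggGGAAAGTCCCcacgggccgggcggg
Ifitm3 (chr7:141010836-141010875, minus strand): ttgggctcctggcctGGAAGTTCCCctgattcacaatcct
Igtp and Irgm2, neighbours on chromosome 11 whose annotated exons overlap, carry a GAS followed by an ISRE core in stretches that differed at 2 of 51 positions; both genes rose with differentiation.
Igtp (chr11:58199496-58199546, plus strand): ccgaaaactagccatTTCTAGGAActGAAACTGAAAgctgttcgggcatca
Irgm2 (chr11:58214887-58214937, plus strand): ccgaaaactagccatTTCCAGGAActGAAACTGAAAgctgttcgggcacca
Isg15, Ifit1 and Ifit3, genes widely used as markers of a type I interferon response, carry 2 or 3 ISRE cores each and were not called with TNF.
Isg15 (chr4:156200860-156200911, minus strand): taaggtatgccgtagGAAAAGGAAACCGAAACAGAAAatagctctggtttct
Ifit1 (chr19:34640770-34640828, plus strand): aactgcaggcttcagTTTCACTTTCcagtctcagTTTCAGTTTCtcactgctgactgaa
Ifit3 (chr19:34583358-34583431, plus strand): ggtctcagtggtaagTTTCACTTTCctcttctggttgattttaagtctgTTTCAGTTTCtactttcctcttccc

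The ISRE core lay upstream of 16 of the 35 matched members, against 3.46% of the 27025 genes in the RefSeq table. GAS matches lay upstream of 13 members, against 8.13% of genes, and kB matches upstream of 7, against 5.31%. Among the 12 matched members that were higher with TNF at either time, 4 held an ISRE core, 2 a GAS and 3 a kB pattern. Among the other 23 matched members, 12 held an ISRE core, 11 a GAS and 4 a kB pattern. A match to these letters is not a measured binding site, and the windows leave out distal elements. The map of matches shows that all ISRE cores of Gbp2, Gbp3, Gbp7, Ifitm2, Igtp, Irgm1, Oas1a and Irgm2 lay within 75 bases of the start, and those of Isg15 within 78.

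**Figure D1:**
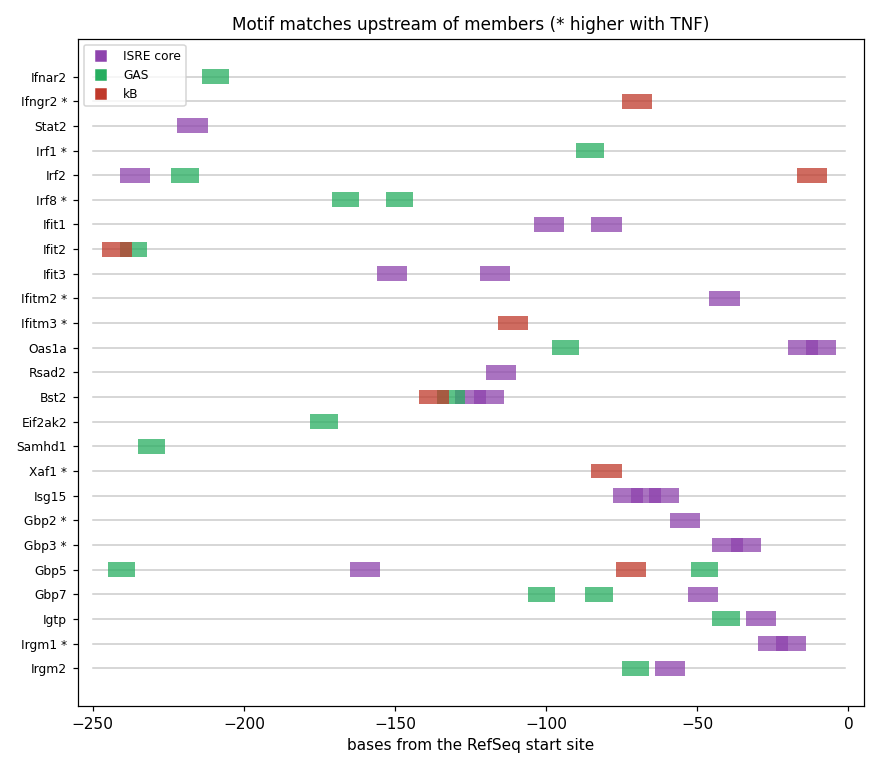
Positions of pattern matches in the 250 bases before the RefSeq start site (x axis, bases; y axis, the 25 members with at least 1 match). Purple bars are ISRE cores, green bars GAS and red bars kB patterns, and asterisks mark members higher with TNF at 24 h or 72 h; matches stand alone upstream of Irf1, Ifngr2 and Gbp2 and overlap each other upstream of Bst2 and Isg15.

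Total counts per library ranged from 12509693 to 22549627. TNF exposure was visible in the treated cultures: of the 4 tested genes of a list of direct NF-kB targets, all 4 were higher at both times, with Nfkbia, the NF-kB inhibitor, at 151, 135 and 161 CPM with TNF and 24.1, 30.4 and 27.9 CPM without at 24 h. All 7 astrocyte markers were detected, in NSPs as well, but they did not move as a group with differentiation. Gfap lay at 11.6, 37.3 and 32.4 CPM in NSPs, 1855, 3172 and 2270.0 CPM at 72 h and 55.9, 52.7 and 81.6 CPM at 1 week. From NSPs to 24 h Gfap, Aqp4 and Aldh1l1 were higher and S100b lower, and from NSPs to 1 week 0 of the 7 were higher by edgeR (5 had an unadjusted p under 0.05 in either direction) and Slc1a3, Slc1a2, Aldh1l1 and S100b were lower. Of 14 microglia or macrophage markers, C1qa, C1qb, C1qc and Ly86 had 0 counts in every library and 3 others at most 1 count, and the summed level of the list lay between 3.31 and 12.7 CPM outside 24 h TNF. In 24 h TNF the list summed to 18.6, 8.80 and 8.20 CPM, and most of each sum was Cd68, a lysosomal glycoprotein gene abundant in macrophages but not restricted to them. Of the 4 tested markers of that list, Cd68 was called higher with TNF at 24 h, at 15.3, 4.55 and 4.78 CPM against 1.51, 1.90 and 2.53 CPM without (2.06 ± 0.54, adjusted p = 0.0409), while Csf1r, Fcer1g and P2ry12 were not. At 72 h Cd68 lay at 9.58, 2.09 and 2.31 CPM with and 2.04, 2.15 and 1.98 CPM without TNF (1.18 ± 0.54, adjusted p = 0.179). Some markers of other cell types also moved with TNF at 72 h. The astrocyte genes Gfap (-2.31 ± 0.56, adjusted p = 0.0128) and S100b (-1.64 ± 0.19, adjusted p = 1.66e-05) were lower. So were the endothelial gene Kdr (-2.27 ± 0.46, adjusted p = 0.00318, mean 1.20 against 5.76 CPM), the neuronal gene Rbfox3 (-1.86 ± 0.45, adjusted p = 0.0124, mean 0.357 against 1.33 CPM) and the oligodendrocyte gene Cnp (-1.04 ± 0.20, adjusted p = 0.00214). The other tested markers of these lists were not called, namely 5 of 7 astrocyte, 1 of 2 endothelial, 4 of 5 neuronal and 2 of 3 oligodendrocyte genes. Positive changes were seen for 2, 1, 1 and 1 of the tested genes, in that order. Replicate 1 of both TNF groups stood apart from its partners, with Gfap at 1871, 463 and 596 CPM at 24 h with TNF and 1022, 217 and 229 CPM at 72 h with TNF. The part of these differences in the results was not tested, and members whose call was lost without replicate 1 of a TNF group are given with and without it. NSP replicate 1 also stood apart, as the values of Gbp3, Ifih1 and Parp14 show.

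Levels of the members were modest and spread widely when set against transcript length. In NSPs the highest mean RPKM values (counts per kilobase of exon, scaled to library size) were 23.1 for Ifnar1, 14.2 for Irf3, 11.3 for Ifngr1 and 11.2 for Eif2ak2. At 72 h the order was led by Ifit2 at 47.5 RPKM, Ifngr1 at 24.5 and Ifnar1 at 15.7, and at 1 week by Ifit2 at 46.2, Ifit3 at 23.3 and Ifngr1 at 20.98. Gbp2 was the highest member in 24 h TNF, at 25.2 RPKM, but in replicate 1 it was more than 3 times as high as in the others. At the other end 9 members did not pass the filter on low counts and were not tested. Zbp1, Oas1a, Bst2 and Trim25 had at most 3 counts in every library. The counts of Oas1a are uncertain, since 47.6% of its 75-base words also occur in other genes, chiefly Oas1g. Trim25 had at most 1 count although none of its words is shared, and whether the annotation used in counting covered it could not be checked, so its low count is no measure of its level. The 4 genes encode a Z-form nucleic acid sensor, an oligoadenylate synthetase, the virion tether called tetherin and a ubiquitin ligase that acts on RIG-I. Mx1, whose human counterpart blocks influenza virus, had at most 5 counts. Oas2 ranged from 2 to 11 counts with no group apart from the rest. The other 3 untested members, Oasl2, Gbp5 and Iigp1, are described with TNF.

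Interferon transcripts themselves were near the limit of detection. Of 10 ligand genes listed, Ifna1, Ifna4, Ifne, Ifng, Ifnl2 and Ifnl3 had 0 counts in all 18 libraries, which allows up to 3 counts in each, and Ifnb1, Ifna2 and Ifna5 did not exceed 3 counts. Ifnb1 had 2, 3 and 1 counts at 72 h and 1, 0 and 0 with TNF. Ifnk, an interferon known from skin, was the exception: it lay at 0.254, 0.110 and 0.171 CPM in NSPs, 2.49, 0.839 and 2.85 CPM at 24 h and 5.60, 3.80 and 1.65 CPM at 72 h, and was not called with TNF at either time.

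TNF raised a subset of the list at each time. These are bulk cultures, in which a change in the share of cells that express a gene and a change in its RNA per cell cannot be told apart. At 24 h, 13 of the 38 tested members were higher and 0 lower (edgeR quasi-likelihood test over all genes, adjusted p under 0.05), against 2.18% of all 20067 tested genes higher and 1.32% lower. At 72 h, 9 members were higher and 1 lower, against 4.35% higher and 5.21% lower. The marker genes Gfap, S100b, Kdr, Rbfox3 and Cnp were also lower, as given above, and their part in these counts was not tested. The median log2 fold change of the tested members was 0.64 at 24 h and 0.43 at 72 h, beside -0.0052 and -0.0088 over all tested genes. Ifngr2, Irf1, Ddx58, Ifitm3 and Gbp9 were higher at both times, 8 members passed at 24 h alone, 5 at 72 h alone (4 higher and 1 lower), and 20 at neither time. In what follows levels are CPM (counts scaled to library size after TMM normalization) for replicates 1, 2 and 3 in that order, and changes are log2 fold changes ± SE with Benjamini-Hochberg adjusted p from edgeR.

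**Figure D2:**
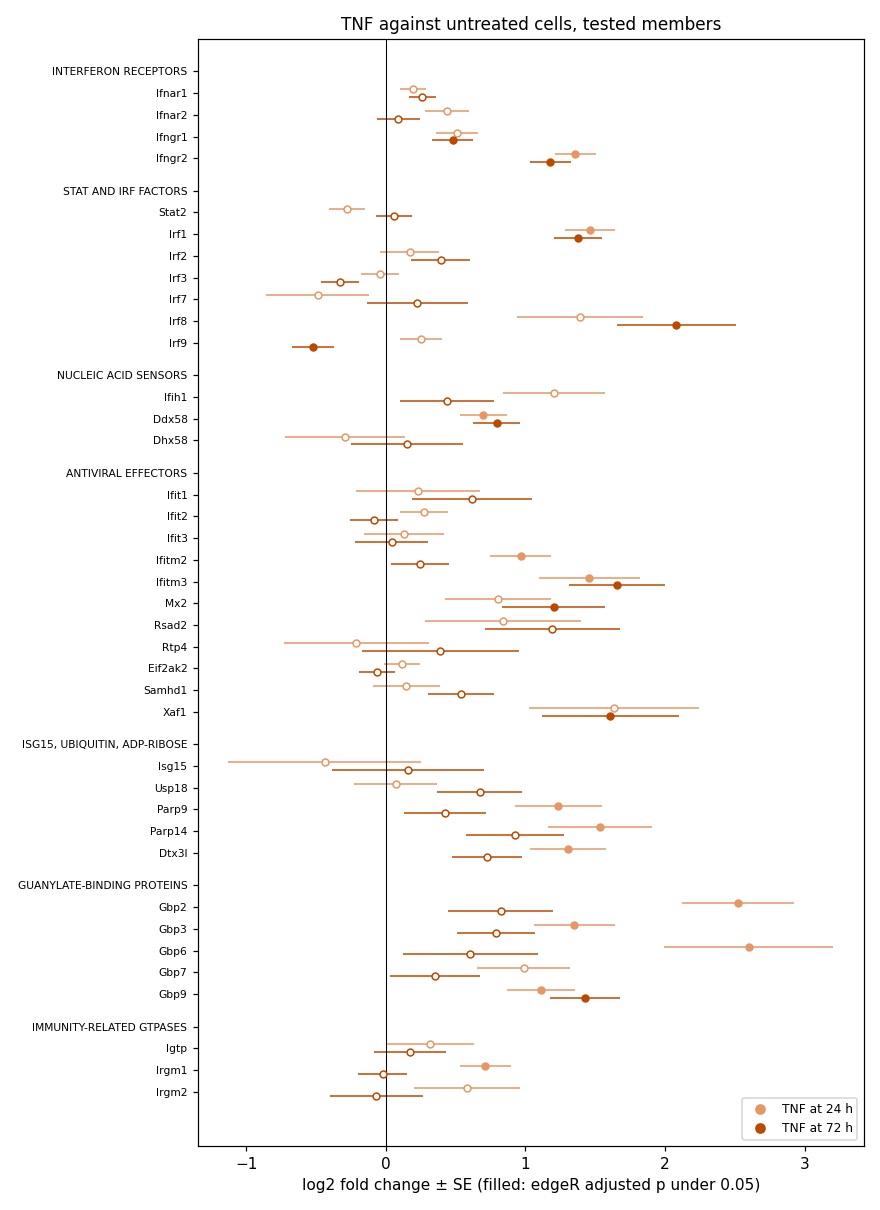
Log2 fold change with TNF against untreated cells of the same time (x axis, ± SE from edgeR) for the 38 tested members, grouped by role on the y axis. Light points are 24 h and dark points 72 h, with filled points past an adjusted p of 0.05; Gbp6 and Gbp2 reach 2.60 and 2.52 at 24 h, and Irf8 reaches 2.08 at 72 h.

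Among the receptors, the second chain of the interferon gamma receptor rose most. Ifngr2 lay at 21.5, 21.9 and 16.3 CPM at 24 h and 59.5, 45.6 and 48.0 CPM with TNF, a change of 1.36 ± 0.15, adjusted p = 2.25e-05. At 72 h it lay at 22.6, 26.8 and 29.9 CPM without and 57.8, 61.6 and 60.3 CPM with TNF, a change of 1.18 ± 0.15, adjusted p = 3.61e-05. The treated and untreated cultures did not overlap at either time. Ifngr1, the ligand-binding chain, lay at 53.9, 65.5 and 89.5 CPM at 72 h and 104, 96.6 and 91.0 CPM with TNF. Its change of 0.48 ± 0.15, adjusted p = 0.0482 was the smallest called increase of the list with TNF. Its change at 24 h was 0.51 ± 0.15, adjusted p = 0.075. The type I receptor chains were not called: Ifnar1 changed by 0.19 ± 0.09, adjusted p = 0.388 at 24 h and by 0.26 ± 0.09, adjusted p = 0.0895 at 72 h, and Ifnar2 by 0.43 ± 0.16, adjusted p = 0.171 and 0.09 ± 0.15, adjusted p = 0.76.

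Of the 7 transcription factors, Irf1 was higher at both times and Irf8 at 72 h, while Irf9 was lower at 72 h. Irf1, which activates many interferon targets directly, lay at 10.7, 9.95 and 11.2 CPM at 24 h and 37.7, 24.8 and 25.3 CPM with TNF, and the change was 1.46 ± 0.18, adjusted p = 7.26e-05. At 72 h the values were 12.5, 15.1 and 16.8 CPM and 36.1, 39.1 and 40.4 CPM with TNF, a change of 1.38 ± 0.17, adjusted p = 4.32e-05, again with no overlap. Irf8, best known as a factor of macrophages and dendritic cells, was low throughout. It had 4, 8 and 6 counts at 72 h and 20, 30 and 32 counts with TNF, equal to 0.303, 0.491 and 0.330 and 1.13, 1.74 and 2.00 CPM, a change of 2.08 ± 0.43, adjusted p = 0.00332. Its counts at 24 h were 4, 6 and 7 without and 24, 8 and 17 with TNF, and that change was not called (1.39 ± 0.45, adjusted p = 0.114). Of the macrophage or microglia markers at 72 h, Cd68 was higher in replicate 1 with TNF as given above, Csf1r had 8, 13 and 5 counts without and 14, 15 and 12 counts with TNF (0.54 ± 0.46, adjusted p = 0.49), Fcer1g and P2ry12 were detected and not called, and Ptprc and Itgam had 0 counts in each treated library. Their part in the change of Irf8 was not tested. Irf9, the DNA-binding part of the type I interferon complex, fell from 19.1, 20.2 and 18.8 CPM at 72 h to 10.8, 14.3 and 15.4 CPM with TNF, a change of -0.52 ± 0.15, adjusted p = 0.0325. Its partner Stat2 changed by -0.28 ± 0.13, adjusted p = 0.339 at 24 h and 0.06 ± 0.13, adjusted p = 0.819 at 72 h, and Irf7, which amplifies type I interferon production, by -0.49 ± 0.37, adjusted p = 0.643 and 0.22 ± 0.36, adjusted p = 0.741, none of them called. Irf2, a competitor of IRF1 at shared sites, and Irf3, which switches on Ifnb1 after viral sensing, were not called either.

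The sensor Ddx58, which encodes RIG-I, the detector of uncapped viral RNA, was higher at both times. It lay at 25.2, 24.5 and 23.0 CPM at 24 h and 39.2, 42.9 and 35.9 CPM with TNF (0.70 ± 0.17, adjusted p = 0.023), and at 27.7, 29.7 and 30.4 CPM at 72 h and 42.1, 58.8 and 51.3 CPM with TNF (0.79 ± 0.17, adjusted p = 0.00393). Treated and untreated cultures were apart at both times. Ifih1, which encodes MDA5, a sensor of long double-stranded RNA, lay at 8.01, 4.86 and 6.60 CPM at 24 h and 23.7, 10.6 and 10.3 CPM with TNF, and the change of 1.21 ± 0.37, adjusted p = 0.0844 did not pass. Dhx58, which encodes the regulator LGP2, had at most 15 counts and was not called.

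Of the 11 tested antiviral effectors, 2 were higher at 24 h and 3 at 72 h, and they were the membrane proteins of the IFITM family, Mx2 and Xaf1. Ifitm3, which blocks the entry of enveloped viruses, lay at 0.453, 0.671 and 0.978 CPM at 24 h and 1.89, 1.86 and 2.00 CPM with TNF (1.46 ± 0.36, adjusted p = 0.0282). At 72 h it lay at 0.303, 0.736 and 1.10 CPM and 2.70, 1.80 and 2.50 CPM with TNF (1.65 ± 0.34, adjusted p = 0.00375), and the groups did not overlap. Ifitm2, its paralog, rose at 24 h from 4.61, 6.65 and 4.07 CPM to 9.64, 11.1 and 9.49 CPM (0.96 ± 0.22, adjusted p = 0.0167). At 72 h the values of Ifitm2 overlapped, at 7.57, 9.20 and 13.2 CPM and 13.2, 11.4 and 10.9 CPM with TNF. Ifitm2 shares 40.9% of its exon bases with a gene model on the same strand, Gm45717, so its counts are uncertain. Mx2, a dynamin-like GTPase, lay at 0.681, 0.798 and 1.21 CPM at 72 h and 3.10, 1.57 and 1.63 CPM with TNF, with replicate 1 the highest (1.20 ± 0.37, adjusted p = 0.0468). Without replicate 1 of both TNF groups the change of Mx2 was 0.80 (adjusted p = 0.219). Xaf1, which encodes a partner of the apoptosis inhibitor XIAP, lay at 0.378, 0.614 and 0.880 CPM at 72 h and 1.69, 2.15 and 2.06 CPM with TNF (1.61 ± 0.49, adjusted p = 0.0452).

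The RNA-binding IFIT proteins, Rsad2 (viperin), Rtp4, the kinase Eif2ak2 (PKR) and the nucleotide hydrolase Samhd1 were not called with TNF at either time. Ifit3 lay at 6.35, 6.32 and 7.09 CPM at 24 h and 10.8, 6.04 and 4.72 CPM with TNF, a change of 0.13 ± 0.29, adjusted p = 0.907, and at 17.9, 23.1 and 23.4 and 19.9, 24.6 and 21.9 CPM at 72 h, a change of 0.04 ± 0.26, adjusted p = 0.945. Ifit2 changed by 0.27 ± 0.17, adjusted p = 0.556 at 24 h and -0.08 ± 0.17, adjusted p = 0.796 at 72 h, and Eif2ak2 by 0.12 ± 0.13, adjusted p = 0.783 and -0.07 ± 0.13, adjusted p = 0.791. Rsad2, a far lower gene, changed by 1.19 ± 0.48, adjusted p = 0.132 at 72 h, with an SE several times that of Eif2ak2. Of the untested effectors, Oasl2, an oligoadenylate synthetase-like gene, had 0, 5 and 2 counts at 72 h and 8, 18 and 11 with TNF, a ratio of scaled sums of 4.95 (exact 95% counting interval 2.18 to 13.1). This interval covers counting error alone and not the spread between cultures.

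Of the enzymes of ADP-ribose transfer and their partner, Parp14, Parp9 and Dtx3l were each called higher at 24 h, and all 3 calls were lost without 24 h TNF replicate 1. Parp14, a mono-ADP-ribosyltransferase, lay at 6.50, 4.47 and 6.03 CPM at 24 h and 25.4, 12.3 and 11.3 CPM with TNF (1.54 ± 0.37, adjusted p = 0.0241). Parp9 lay at 3.70, 4.92 and 3.91 CPM and 13.9, 8.35 and 7.43 CPM with TNF (1.24 ± 0.31, adjusted p = 0.0306). Dtx3l, the ubiquitin ligase that forms a complex with PARP9, lay at 3.25, 2.68 and 3.67 CPM and 11.6, 6.41 and 5.54 CPM with TNF (1.30 ± 0.27, adjusted p = 0.00897). All 3 genes were highest in replicate 1 of 24 h TNF, although the other 2 treated cultures also lay above the untreated ones. Without that library the changes were 1.04 (adjusted p = 0.169) for Parp14, 0.89 (adjusted p = 0.193) for Parp9 and 0.89 (adjusted p = 0.0669) for Dtx3l. Parp9 and Dtx3l are divergent neighbours whose exons overlap on opposite strands over 9.4% and 8.0% of their length, and the strand setting of the counting is not given in the sources used here. At 72 h none of them passed, with changes of 0.92 ± 0.35, adjusted p = 0.106 for Parp14, 0.42 ± 0.29, adjusted p = 0.39 for Parp9 and 0.72 ± 0.25, adjusted p = 0.0773 for Dtx3l. Isg15, the ubiquitin-like modifier that gives the group its name, had 2, 13 and 1 counts at 24 h and 6, 3 and 3 with TNF, and 7, 10 and 10 counts at 72 h and 5, 13 and 14 with TNF. Its changes were -0.44 ± 0.69, adjusted p = 0.862 at 24 h and 0.16 ± 0.55, adjusted p = 0.889 at 72 h, with wide SEs at these counts. Usp18, the protease that removes ISG15, changed by 0.07 ± 0.30, adjusted p = 0.958 at 24 h and 0.67 ± 0.30, adjusted p = 0.175 at 72 h.

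The guanylate-binding proteins included the 2 largest called changes of the list with TNF at 24 h. In that comparison 4 of the 5 tested genes were higher, and the median log2 fold change of the 5 was 1.35. Gbp2 lay at 11.1, 10.3 and 11.7 CPM at 24 h and 122, 35.0 and 32.5 CPM with TNF, a change of 2.52 ± 0.40, adjusted p = 9.91e-04. Replicate 1 was more than 3 times as high as its partners, yet all 3 treated cultures lay above the untreated ones, and without that library the change was 1.59 (adjusted p = 0.00127). Gbp3 lay at 11.1, 12.9 and 12.6 CPM and 49.9, 21.7 and 21.8 CPM with TNF (1.35 ± 0.29, adjusted p = 0.0113), and without replicate 1 of 24 h TNF its change was 0.81 (adjusted p = 0.0778). Gbp6 lay at 0.529, 0.559 and 0.489 CPM and 7.24, 1.57 and 0.885 CPM with TNF (2.60 ± 0.61, adjusted p = 0.019), and without that library its change was 1.16 (adjusted p = 0.219). Of the 75-base words in the transcripts of Gbp6, 67.3% also occur in other genes, chiefly Gm43302, so its counts are uncertain.

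Gbp9 was the one GBP called at both times. It lay at 3.33, 1.96 and 2.28 CPM at 24 h and 6.49, 5.89 and 3.89 CPM with TNF (1.11 ± 0.24, adjusted p = 0.0128), and at 1.82, 1.90 and 1.32 CPM at 72 h and 4.73, 4.53 and 4.25 CPM with TNF (1.43 ± 0.25, adjusted p = 0.00101), with no overlap at either time. The treated values at 72 h lay within a narrow range, and replicate 1 did not stand apart. At 72 h Gbp2 lay at 22.2, 33.4 and 35.2 CPM and 75.4, 46.9 and 38.7 CPM with TNF (0.82 ± 0.38, adjusted p = 0.179), and Gbp3 at 17.3, 20.9 and 25.0 CPM and 38.0, 36.7 and 34.7 CPM with TNF (0.79 ± 0.28, adjusted p = 0.0882). The treated cultures were all above the untreated ones for both genes, though neither change passed. Gbp7 changed by 0.99 ± 0.33, adjusted p = 0.132 at 24 h and 0.35 ± 0.32, adjusted p = 0.523 at 72 h. Gbp5 had 2, 5 and 5 counts at 24 h and 28, 5 and 6 with TNF, so that 1 library held most of them.

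**Figure D3:**
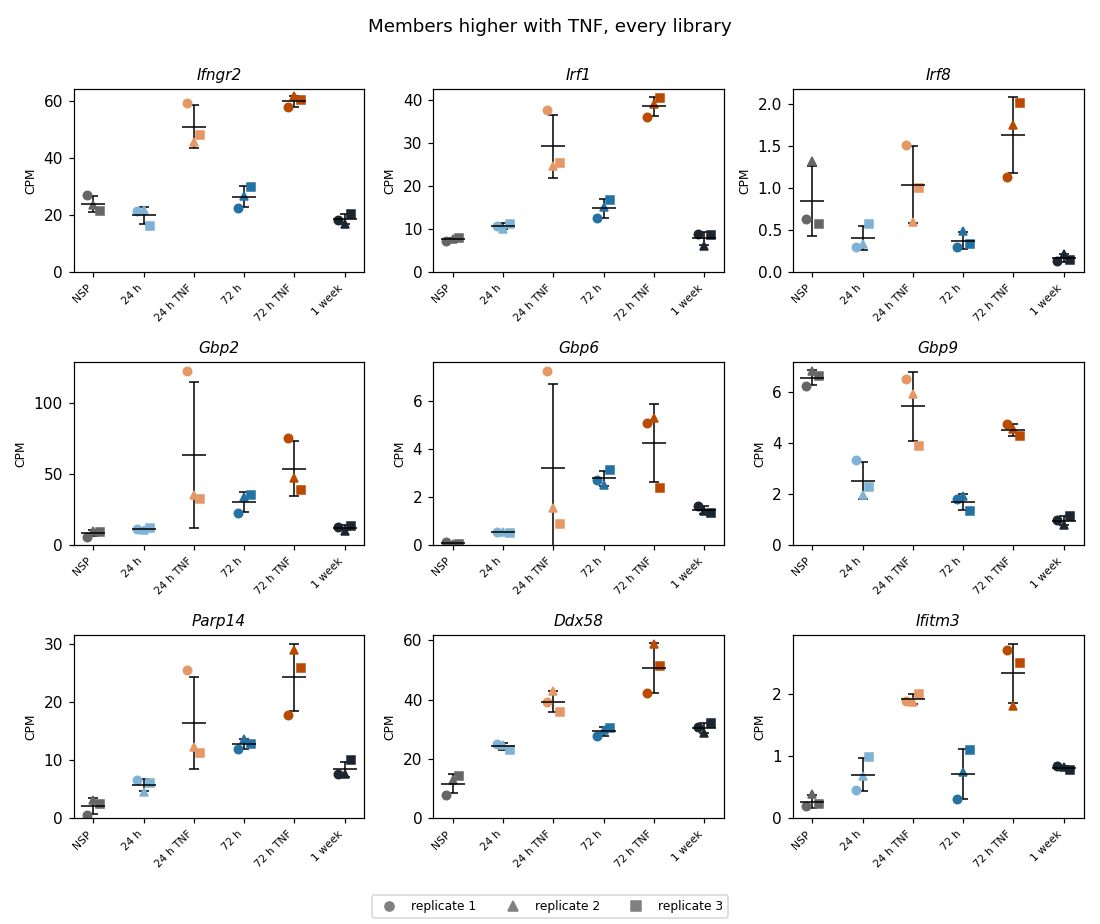
Levels in CPM (y axes from 0) of 9 members in each of the 18 libraries, by group on the x axis. Symbols mark replicates 1, 2 and 3, black bars the mean ± SD (n = 3); Ifngr2, Irf1 and Gbp9 separate treated from untreated cultures at both times, whereas Gbp2 and Gbp6 in 24 h TNF are led by replicate 1.

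Of the immunity-related GTPases, Irgm1 alone was called with TNF, at 24 h. Irgm1, a regulator of the other IRGs, lay at 7.48, 7.77 and 7.41 CPM at 24 h and 15.9, 10.9 and 10.4 CPM with TNF (0.71 ± 0.18, adjusted p = 0.0346), and without replicate 1 of 24 h TNF its change was 0.47 (adjusted p = 0.222). At 72 h it did not pass (-0.02 ± 0.18, adjusted p = 0.952). Igtp changed by 0.32 ± 0.32, adjusted p = 0.748 at 24 h and 0.17 ± 0.26, adjusted p = 0.723 at 72 h, and Irgm2 by 0.58 ± 0.38, adjusted p = 0.579 and -0.07 ± 0.33, adjusted p = 0.926. Iigp1, an effector of the family, was too low to test, with 2, 4 and 4 counts at 72 h and 5, 16 and 20 with TNF, a ratio of 3.84 (exact 95% counting interval 1.89 to 8.59).

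The difference between the TNF effects at the 2 times was tested directly. Of the 38 members, 0 passed in either direction by edgeR. Of all tested genes, 0.135% had a more positive log2 fold change with TNF at 72 h than at 24 h, and 0.324% a more negative one. At an unadjusted p under 0.05 there were 5 members, DESeq2 called 1, Irf9, and edgeR with no filter on low counts called 2, Gbp2 and Gbp6, both with the smaller effect at 72 h. The largest difference was that of Gbp6, at -2.00 ± 0.78, adjusted p = 0.386, and that of Gbp2 was -1.70 ± 0.54, adjusted p = 0.235. Under the other alternatives 0 were called, so for Gbp2 and Gbp6 the call of a difference depended on the filter, and for the other members called at 24 h and not at 72 h no difference between the times was called.

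The number of members called at 24 h depended on single libraries. Without 24 h TNF replicate 1 it was 4 (Ifngr2, Irf1, Ifitm2 and Gbp2), and without 24 h replicate 1, 2 or 3 it was 5, 5 or 6. Without 24 h TNF replicate 1 the changes of Ddx58, Ifitm3 and Gbp9 at 24 h were 0.68 (adjusted p = 0.0677), 1.45 (adjusted p = 0.0669) and 0.94 (adjusted p = 0.0783), none of them past the threshold. Without replicate 1 of both TNF groups, an alternative added after the data were seen, 7 members were called at 24 h and 11 at 72 h. Ifngr2, Irf1 and Gbp2 kept their call at 24 h under each of the 14 alternatives, and Ifngr2, Irf1, Irf8, Ddx58, Ifitm3 and Gbp9 kept theirs at 72 h. The calls of Ifngr1, Irf9, Mx2 and Xaf1 at 72 h were each lost under 8 or 9 of the 14. Without 72 h TNF replicate 1 their changes were 0.43 (adjusted p = 0.129), -0.38 (adjusted p = 0.146), 0.81 (adjusted p = 0.255) and 1.71 (adjusted p = 0.0682), in that order. The called members named above kept their direction in all of them.

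In untreated cultures, members changed in both directions as cells left the NSP state. From NSPs to 24 h, 15 of 38 tested members were higher and 8 lower, against 27.2% and 25.5% of all tested genes. From NSPs to 1 week, 17 were higher and 9 lower, against 29.6% and 29.1%. At 24 h against NSPs, 16 to 20 members were called when single libraries were left out, with 19 without NSP replicate 1, which stood apart. Between 24 h and 72 h, 15 were higher and 0 lower, against 12.2% and 12.6% of all genes, and the members' median log2 fold change was 0.50 against -0.0058 over all genes. From 72 h to 1 week, 1 was higher and 5 were lower, against 2.68% and 3.96%. In the same step 5 of the 7 astrocyte markers were lower, namely Gfap (-5.26 ± 0.64, adjusted p = 5.59e-05), Aqp4 (-2.12 ± 0.39, adjusted p = 0.00254), Aldh1l1 (-1.19 ± 0.32, adjusted p = 0.029), Gja1 (-2.18 ± 0.56, adjusted p = 0.0228) and S100b (-2.44 ± 0.20, adjusted p = 1.30e-06), and so was the oligodendrocyte gene Cnp (-0.93 ± 0.20, adjusted p = 0.0072). The part of these markers in the counts of members was not tested. The total of 6 members was 1, 3, 2, 1 and 3 without 72 h replicate 2, 72 h replicate 3 and 1 week replicates 1, 2 and 3, respectively. Comparisons that share a group are not independent of each other.

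**Figure D4:**
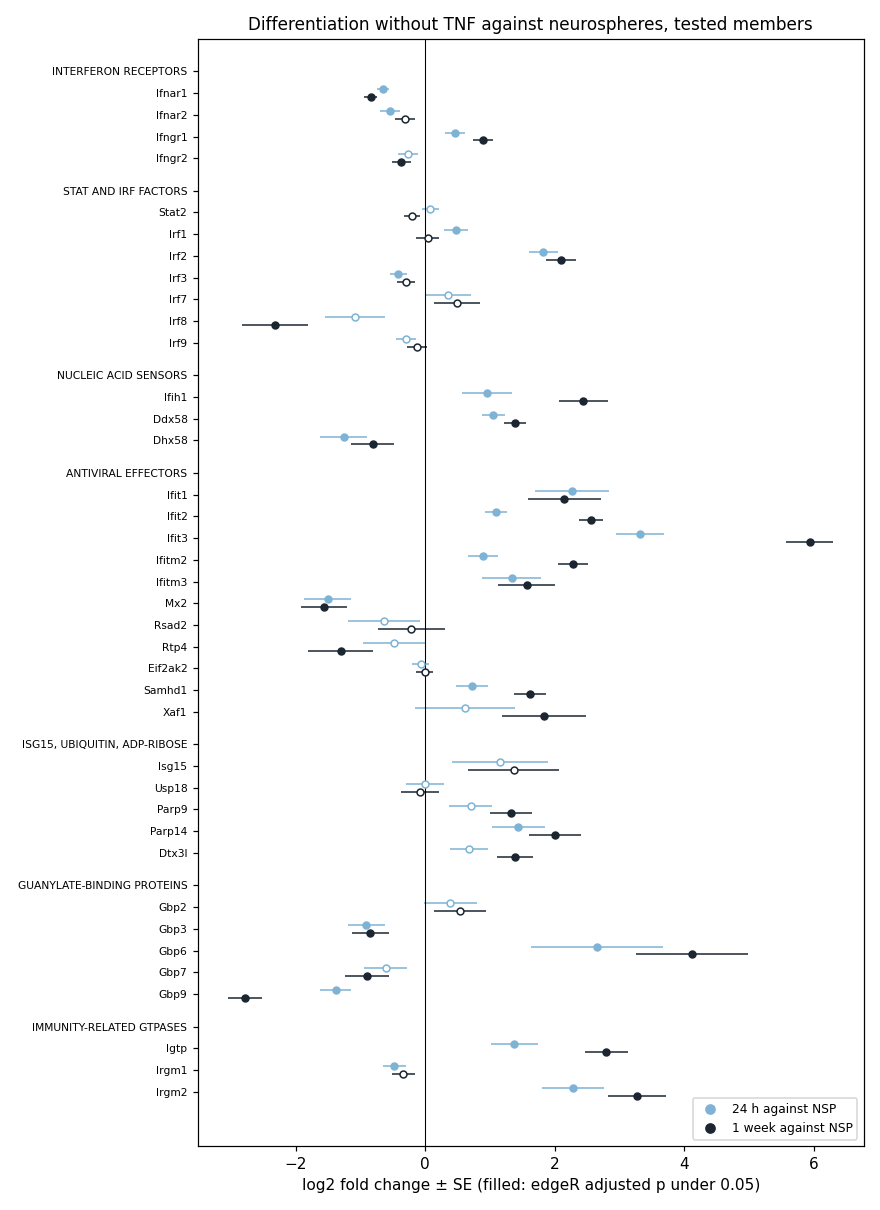
Log2 fold change against NSPs at 24 h (light points) and 1 week (dark points) without TNF (x axis, ± SE from edgeR) for the 38 tested members, grouped by role on the y axis. Filled points are past an adjusted p of 0.05; Ifit3 reaches 5.93 at 1 week, while Gbp9, Irf8 and Mx2 lie at -2.78, -2.32 and -1.56.

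Ifit3 had the steepest course of the list. It rose from 0.190, 0.604 and 1.14 CPM in NSPs to 6.35, 6.32 and 7.09 at 24 h, 17.9, 23.1 and 23.4 at 72 h and 39.1, 35.9 and 46.8 at 1 week, a change of 3.31 ± 0.37, adjusted p = 9.07e-07 at 24 h and 5.93 ± 0.36, adjusted p = 1.49e-10 at 1 week against NSPs. Successive groups did not overlap, and the last step, 0.92 ± 0.26, adjusted p = 0.0412, passed as well but was lost under 8 of its 13 alternatives. Reads of Ifit3 can be shared with Ifit3b, since 41.1% of its 75-base words also occur in other genes. Ifit2 lay at 34.5, 27.5 and 30.3 CPM in NSPs, 74.0, 66.8 and 55.7 at 24 h, 151, 186 and 223 at 72 h and 186, 148 and 210.4 at 1 week (2.56 ± 0.18, adjusted p = 1.08e-09 at 1 week against NSPs). Ifit1 was much lower, at 0.127, 0.329 and 0.171 CPM in NSPs and 0.353, 0.932 and 1.76 at 1 week (2.14 ± 0.56, adjusted p = 0.00319).

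**Figure D5:**
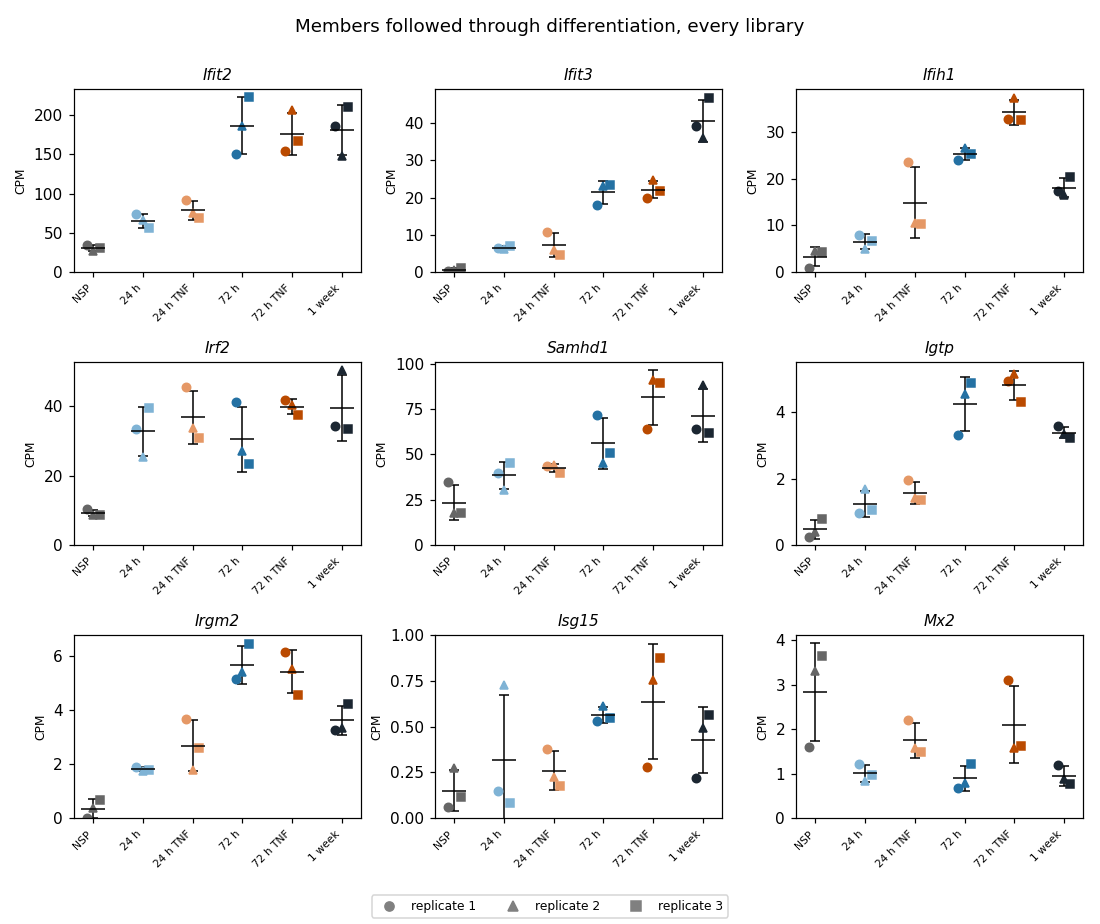
Levels in CPM (y axes from 0) of 9 members in each of the 18 libraries, by group on the x axis. Symbols mark replicates 1, 2 and 3, black bars the mean ± SD (n = 3, cut at 0 for Isg15); Ifit2, Ifih1 and Igtp step up between 24 h and 72 h with or without TNF, and Mx2 has its highest mean in NSPs.

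Among the sensors, Ifih1 lay at 0.889, 4.61 and 4.38 CPM in NSPs, 8.01, 4.86 and 6.60 at 24 h, 24.0, 26.7 and 25.3 at 72 h and 17.4, 16.6 and 20.4 at 1 week, and its step from 24 h to 72 h was 1.97 ± 0.37, adjusted p = 5.91e-04. Ddx58 rose against NSPs by 1.05 ± 0.17, adjusted p = 6.41e-05 at 24 h and 1.38 ± 0.17, adjusted p = 1.62e-06 at 1 week. Irf2 rose early, from 10.3, 8.79 and 8.65 CPM in NSPs to 33.5, 25.4 and 39.4 at 24 h (1.82 ± 0.23, adjusted p = 3.02e-06), and then changed by -0.11 ± 0.21, adjusted p = 0.766 to 72 h. Irf9 rose from 24 h to 72 h by 0.82 ± 0.15, adjusted p = 5.52e-04 and fell by 1 week (-0.65 ± 0.15, adjusted p = 0.012). Irf1 was lower at 1 week than at 72 h, at 8.79, 6.14 and 8.66 CPM (-0.92 ± 0.18, adjusted p = 0.00372), and so was Ifngr2 (-0.52 ± 0.15, adjusted p = 0.0423). Gbp2 lay at 12.9, 10.1 and 13.7 CPM at 1 week, below each 72 h culture (-1.32 ± 0.39, adjusted p = 0.0494). The calls of Ifngr2 and Gbp2 from 72 h to 1 week were each lost under 8 of 13 alternatives and that of Irf9 under 4, whereas that of Irf1 was kept under all 13. Irf8, in contrast, fell from 0.635, 1.32 and 0.569 CPM in NSPs to 0.132, 0.219 and 0.141 at 1 week (-2.32 ± 0.51, adjusted p = 7.27e-04).

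All 3 tested IRGs rose between 24 h and 72 h. Igtp lay at 0.254, 0.384 and 0.796 CPM in NSPs, 0.982, 1.68 and 1.06 at 24 h, 3.33, 4.54 and 4.90 at 72 h and 3.58, 3.34 and 3.24 at 1 week, with a step of 1.75 ± 0.29, adjusted p = 2.43e-04 between 24 h and 72 h. Irgm2 lay at 0, 0.384 and 0.683 CPM in NSPs, 1.89, 1.73 and 1.79 at 24 h, 5.15, 5.40 and 6.44 at 72 h and 3.27, 3.34 and 4.23 at 1 week, and its change against NSPs was 2.28 ± 0.48, adjusted p = 6.82e-04 at 24 h and 3.27 ± 0.45, adjusted p = 5.59e-06 at 1 week. The exons of Igtp and Irgm2 overlap over 8.01% and 4.39% of their length. Irgm1 went down from NSPs to 24 h (-0.48 ± 0.18, adjusted p = 0.0352) and up to 72 h (0.96 ± 0.18, adjusted p = 6.53e-04), where it lay at 12.2, 17.3 and 14.7 CPM. At 1 week it was back at 9.32, 7.18 and 8.45 CPM (-0.83 ± 0.18, adjusted p = 0.00757). The first of these changes of Irgm1 was lost under 7 of 13 alternatives and the last under 3.

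The GBPs parted from each other with differentiation. Gbp6 had 2, 1 and 1 counts in NSPs and 7, 10 and 6 at 24 h, a ratio of scaled sums of 6.83 (exact 95% counting interval 2.33 to 27.2), with a call that was lost without any 1 of the 6 libraries, and it lay at 2.72, 2.52 and 3.14 CPM at 72 h (2.39 ± 0.61, adjusted p = 0.00726 from 24 h). At 1 week it lay at 1.63, 1.43 and 1.34 CPM, a ratio of 19.2 to NSPs (7.21 to 72.1). Gbp2 rose from 24 h to 72 h (1.46 ± 0.40, adjusted p = 0.0106). Gbp9 fell from 6.22, 6.81 and 6.60 CPM in NSPs to 3.33, 1.96 and 2.28 at 24 h (-1.38 ± 0.24, adjusted p = 1.20e-04) and 0.972, 0.767 and 1.13 at 1 week (-2.78 ± 0.26, adjusted p = 4.96e-08), and Gbp3, at 34.3, 16.7 and 17.9 CPM in NSPs, fell to 11.1, 12.9 and 12.6 at 24 h (-0.91 ± 0.29, adjusted p = 0.014). Without NSP replicate 1 the change of Gbp3 was -0.51 (adjusted p = 0.131), and without 24 h replicate 1 it was -0.85 (adjusted p = 0.0505). Of the treated values of Gbp9 at 24 h given above, replicate 1 lay within the range of Gbp9 in NSPs and the other 2 below it, and all 3 treated values of Gbp9 at 72 h lay below it. Treated cells were not tested against NSPs.

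Among the remaining effectors, Mx2 fell from 1.59, 3.29 and 3.64 CPM in NSPs to 1.21, 0.839 and 0.978 at 24 h (-1.51 ± 0.36, adjusted p = 0.00212) and lay at 1.19, 0.877 and 0.775 at 1 week (-1.56 ± 0.35, adjusted p = 9.99e-04). Dhx58 fell from 0.952, 0.824 and 0.740 to 0.378, 0.335 and 0.326 CPM (-1.26 ± 0.36, adjusted p = 0.0074). Samhd1, Ifitm2 and Ifitm3 were higher at 1 week than in NSPs, by 1.61 ± 0.25, adjusted p = 1.86e-05, 2.28 ± 0.23, adjusted p = 1.05e-07 and 1.56 ± 0.43, adjusted p = 0.00483. Eif2ak2 lay between 47.4 and 67.9 CPM in all 18 libraries, with no called change in any comparison.

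In the presence of TNF, 6 members were higher at 72 h than at 24 h and 0 lower, against 5.38% and 7.93% of all tested genes. They were Ifngr1, Ifih1, Ifit2, Ifit3, Samhd1 and Igtp. Ifit3 rose from 10.8, 6.04 and 4.72 to 19.9, 24.6 and 21.9 CPM (1.62 ± 0.28, adjusted p = 8.66e-04), Igtp from 1.95, 1.42 and 1.36 to 4.96, 5.16 and 4.32 CPM (1.61 ± 0.28, adjusted p = 0.00112), and Ifih1 from 23.7, 10.6 and 10.3 to 32.9, 37.4 and 32.6 CPM (1.20 ± 0.35, adjusted p = 0.0265). Without 24 h TNF replicate 1 the count was 14, and the call of Ifih1 was lost under 5 of 14 alternatives. Ifit3, Igtp and Ifih1 were also higher at 72 h than at 24 h in untreated cultures, by 1.71 ± 0.28, adjusted p = 1.94e-04, 1.75 ± 0.29, adjusted p = 2.43e-04 and 1.97 ± 0.37, adjusted p = 5.91e-04.

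Other genes of the interferon pathway were read against the same shares of all tested genes, 2.18% higher with TNF at 24 h and 4.35% at 72 h. Of 15 transducers, 0 were called at 24 h by edgeR, with 3 at an unadjusted p under 0.05, and 2 were higher at 72 h. The median log2 fold change of the 15 was 0.23 at 24 h and 0.06 at 72 h. The called genes were Irf5, a factor downstream of Toll-like receptors (1.66 ± 0.31, adjusted p = 0.00147), and Traf3, an adaptor of the sensor pathways (0.69 ± 0.18, adjusted p = 0.0167). Of 6 inhibitors, Socs3, a feedback inhibitor of JAK signalling, was the 1 called at 24 h, higher at 7.48, 7.55 and 7.41 CPM without and 13.8, 14.5 and 20.3 CPM with TNF (1.12 ± 0.20, adjusted p = 0.00316). Of 35 other interferon-stimulated genes 14 were tested, of which 0 were called at 24 h, with 3 at an unadjusted p under 0.05 and a median of 0.22. At 72 h, with a median of 0.07, Lgals3bp, which encodes a secreted galectin-binding glycoprotein, was higher (1.39 ± 0.37, adjusted p = 0.0208) and Cmpk2, a mitochondrial nucleotide kinase next to Rsad2, was lower (-0.71 ± 0.20, adjusted p = 0.0298).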

How the data were processed

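Total RNA of 18 cultures was depleted of ribosomal RNA and sequenced as stranded paired-end libraries of 75 bases. The authors trimmed the reads with Trim Galore, aligned them with STAR to mm10 and counted reads per gene with featureCounts, and they deposited the raw counts without normalization. Versions, strandedness in counting and the treatment of multi-mapping reads are not given in the sources used here, and RNA quality, given as a range over all samples, was not tested. Groups came from the labels. Gene names and positions are from GENCODE M21 (54809 of 54838 Ensembl identifiers matched, GRCm38).

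TMM factors and the quasi-likelihood test of edgeR (version 4.0.16, R 4.3.3) were fitted to the 18 libraries together, with group means. The 20067 genes that passed filterByExpr were tested, 38 members among them, with Benjamini-Hochberg adjustment over all of them and a threshold of 0.05. The SE was taken as the log2 fold change divided by the square root of F. The test was checked on counts drawn with known changes. Every pair of replicates differed beyond counting noise (chi-square statistics divided by their degrees of freedom, 4.08 to 62.7). Total counts had a median of 16794798, and intervals from counts cover counting error only, as reads carry no molecular identifiers. Words of 75 bases were used to find transcript sequence shared between genes.

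The members and all gene lists were chosen with earlier results of these data known. Members called with TNF and the 3 largest called changes in each direction of each other comparison are given with their values by library and their changes (Gbp6 against NSPs as a ratio of counts), and members at or under 3 counts are named. Other members and lists are given by counts and examples, and a few values of uncalled members were added after the values were seen. Deviations from the group mean correlated above 0 for all 3 replicate numbers only between 72 h TNF and 24 h TNF (0.291, 0.255 and 0.266). There the fit with a replicate block also called 6 members. Replicate 1 stood apart in both of these groups, and deviations from a mean of 3 depend on each other. These correlations therefore cannot decide whether replicates 2 and 3 were paired. In the table the name of the 72 h replicate 3 column holds a 4, and it was assigned from the rest of its name. Alternatives were DESeq2 (version 1.42.0), RLE normalization, no filter, a mean of at least 10 counts, the replicate block, a fit of the compared groups alone and leaving out each library. Results on 2 listed genes are not reported here.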

Additional observations from a re-analysis of the deposited data

How the results depend on the processing

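No member turned direction under any alternative in a comparison that called it. The number of members called with TNF at 24 h, 13 of 38, ranged from 4 to 13 when single libraries were left out and was 7 without replicate 1 of both TNF groups. At 72 h it was 10, ranged from 6 to 8 without single libraries and was 16 with no filter on low counts, where Oasl2 and Iigp1, which the filter over all 18 libraries leaves out, were among those called, as they were without replicate 1 of both TNF groups (11 members). The 6 members called from 72 h to 1 week became 10 in a fit of those groups alone and 1 to 6 without single libraries, with 1 to 3 except without 72 h replicate 1. The 15 called from 24 h to 72 h ranged from 12 to 19, and the 6 called between the TNF groups from 4 to 14, with 14 without 24 h TNF replicate 1 or without replicate 1 of both TNF groups. From NSPs, 23 members were called at 24 h (16 to 20 without single libraries) and 26 at 1 week (21 to 25). The difference between the TNF effects called 0 members, 1 with DESeq2 (Irf9) and 2 with no filter (Gbp2 and Gbp6). The causes were not tested.

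With the replicate number as a block the counts were 12 with TNF at 24 h, 7 at 72 h, 16 from 24 h to 72 h and 4 from 72 h to 1 week. With 72 h replicate 3 left unpaired in the block, they were 9 from 24 h to 72 h and 2 from 72 h to 1 week. Outside the 2 TNF groups the correlations of the replicates' deviations were not above 0.1 in every pair. With 3 libraries per group these correlations cannot decide whether replicates with the same number share a culture.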
